A study of Mus musculus with 6 samples.

Results

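Interferon-stimulated genes are the genes that a cell switches on when interferons bind their receptors. A list of 50 of these mouse genes, set by name and covering transcription factors, nucleic acid sensors, antiviral effectors, the ISG15 system, GTPases, PARP proteins, antigen processing, and membrane and secreted proteins, was followed in Ezh2 KO and wild type CD4 T helper cells. A probe set that the platform annotation ties to 1 gene was found for 48 of the 50, among 18193 genes on the array. All 48 passed the filter on low signal that left 11572 genes for testing, and in 47 of them at least 1 wild type array was above that limit; Cxcl10 passed through its Ezh2 KO readings alone. Ifi44 had no probe set used here, and the one for Isg15 also carries a second gene's symbol.

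The samples were 6 cultures on 6 arrays, 1 for each combination of genotype (Ezh2 KO or wild type, C57BL/6) and culture condition (Th1, Th2 or unpolarized). All began as naive splenic CD4 T cells with low CD44 and high CD62L, and all received 10 µg/ml agonistic antibody to the TCR β chain, IL-2 at 15 ng/ml and an agonistic antibody to CD28 at 1 µg/ml. They were stimulated for 2 days and recultured for 3 days without the antibodies to TCR β and CD28, 5 days in all. Th1 cultures also had 1 ng/ml IL-12 and an antibody to IL-4, Th2 cultures had 10 ng/ml IL-4 and an antibody to IFN-γ, and unpolarized cultures had both of these antibodies and neither cytokine. The Th1 cultures were therefore the ones without an antibody to IFN-γ. The labels used here do not say how Ezh2 was deleted, the age of the mice, or whether each array had its own mouse. With 1 array per combination, the tests take their error from how unevenly the genotype difference ran over the 3 cultures, moderated across genes. Part or all of that unevenness may be technical. It is not a measure of variation between mice, and a gene whose difference varied with culture has a larger error.

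Type I interferons (the IFN-α family and IFN-β) signal through the IFNAR receptor, and type II interferon (IFN-γ) through IFNGR. Both receptors activate Janus kinases and STAT transcription factors. Type I signals send a complex that includes STAT2 and IRF9 to interferon-stimulated response elements (ISRE), whereas IFN-γ acts mainly through STAT dimers on gamma-activated sites (GAS) and through IRF1, one of its induced factors. In T cells, IFN-γ is itself the signature cytokine of the Th1 fate. Ezh2 is the catalytic subunit of Polycomb repressive complex 2, which methylates histone H3 at lysine 27 at silenced genes.

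The deposited values are linear intensities, with each array scaled to the same trimmed mean. For tests, readings below 11.3, the 20th percentile, were set to that floor before taking log2, and limma estimated the genotype difference with culture as a block. Ezh2 itself read 4876 (Th1), 4946 (Th2) and 4971 (unpolarized) in Ezh2 KO cells, against 6553 (Th1), 7677 (Th2) and 7002 (unpolarized) in wild type cells, which was 1.43-fold lower (adjusted p = 0.0437, and 0.0922 with each array centred on its median); no source used here says whether its probe set lies in the deleted part of the gene. The 8 measured markers of CD4 T cells summed to 71230 to 80630 in Ezh2 KO cells and 73710 to 79740 in wild type cells, with Cd3d, Cd3g and Thy1 at 10240 or more on every array. Of these 8, Cd2 fell in Ezh2 KO cells (-0.64 ± 0.13, adjusted p = 0.0369), and Cd5 was lower on each Ezh2 KO array without passing (-0.51 ± 0.16, adjusted p = 0.0532). Cd4 itself read 300.2 to 433 in Ezh2 KO cells and 477 to 548 in wild type cells. Of the markers of CD8 T cells, Cd8a read 78.6 to 90.9 in Ezh2 KO cells and 89.1 to 152 in wild type cells, and Cd8b1 read 295 to 450.5 in Ezh2 KO cells and 263 to 300.2 in wild type cells. The ratio of 3′ to 5′ probe signal, a sign of RNA integrity, was 0.787 to 0.832 in Ezh2 KO arrays and 0.813 to 0.834 in wild type arrays for Gapdh, and for actin 1.15 to 1.18 in Ezh2 KO and 1.19 on each wild type array. Because RNA was pooled over cells, more responding cells and more RNA per cell cannot be told apart.

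Several of the members that differed most carry letters matching an interferon-type element near their start site. The 250 bases before the annotated start follow, from RefSeq (GRCm38.p6), for the 6 genes with a motif match there and the largest genotype differences, and capitals mark the matches. The stretches lie at chr12:26456453-26456702, minus strand (Rsad2), chr19:34640639-34640888, plus strand (Ifit1), chr5:92348890-92349139, minus strand (Cxcl10), chr5:120907526-120907775, minus strand (Oas1a), chr3:142620413-142620662, plus strand (Gbp2) and chr19:34583279-34583528, plus strand (Ifit3). Each is printed 5′ to 3′ in the direction of transcription.
Rsad2: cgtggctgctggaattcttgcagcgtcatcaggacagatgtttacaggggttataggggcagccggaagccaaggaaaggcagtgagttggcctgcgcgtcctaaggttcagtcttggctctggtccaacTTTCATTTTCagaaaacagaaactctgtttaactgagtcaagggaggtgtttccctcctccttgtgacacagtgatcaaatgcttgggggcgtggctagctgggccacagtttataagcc
Ifit1: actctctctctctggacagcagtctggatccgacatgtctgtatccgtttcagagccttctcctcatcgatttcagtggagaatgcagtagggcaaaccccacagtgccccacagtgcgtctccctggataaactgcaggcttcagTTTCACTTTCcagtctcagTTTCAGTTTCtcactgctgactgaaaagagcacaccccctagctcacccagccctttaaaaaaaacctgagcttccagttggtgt
Cxcl10: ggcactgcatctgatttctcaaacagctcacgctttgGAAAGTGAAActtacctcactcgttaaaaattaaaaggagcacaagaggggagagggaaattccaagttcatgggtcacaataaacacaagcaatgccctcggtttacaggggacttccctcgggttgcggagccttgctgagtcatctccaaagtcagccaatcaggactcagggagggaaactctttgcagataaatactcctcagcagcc
Oas1a: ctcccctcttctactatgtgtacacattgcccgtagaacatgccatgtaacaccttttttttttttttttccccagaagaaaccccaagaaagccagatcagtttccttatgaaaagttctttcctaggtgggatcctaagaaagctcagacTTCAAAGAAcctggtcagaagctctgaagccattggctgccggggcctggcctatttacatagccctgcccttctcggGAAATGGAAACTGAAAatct
Gbp2: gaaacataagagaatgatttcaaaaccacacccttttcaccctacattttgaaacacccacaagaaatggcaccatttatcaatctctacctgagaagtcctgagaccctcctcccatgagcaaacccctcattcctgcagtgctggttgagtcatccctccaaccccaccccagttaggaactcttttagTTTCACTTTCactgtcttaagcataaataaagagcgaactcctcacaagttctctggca
Ifit3: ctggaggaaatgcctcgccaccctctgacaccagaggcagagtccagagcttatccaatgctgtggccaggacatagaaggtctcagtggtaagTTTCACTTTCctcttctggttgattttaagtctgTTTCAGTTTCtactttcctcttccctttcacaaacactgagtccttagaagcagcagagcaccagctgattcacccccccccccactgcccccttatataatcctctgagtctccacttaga
The ISRE-like core (GAAA, any 2 bases and GAAA again, searched on both strands) begins 120 bases before the start in Rsad2, 104 and 85 before it in Ifit1, 213 in Cxcl10, 59 in Gbp2, and 156 and 122 in Ifit3. In Oas1a, a pair of cores overlap at 20 and 14 bases before the start, and a GAS-like match (TTCNNNGAA, the same on both strands) begins 98 bases before it. Irf1, chosen after its values were seen because it encodes a regulator of the others, has a GAS-like match and no ISRE-like core in the 120 bases before its start (chr11:53769894-53770013, plus strand), with the match 90 bases before the start.
Irf1: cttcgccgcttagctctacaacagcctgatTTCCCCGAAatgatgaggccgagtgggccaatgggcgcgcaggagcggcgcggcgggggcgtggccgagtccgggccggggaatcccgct
In windows from 250 bases before to 50 after the start, the ISRE-like core was present in 16 of 44 windows of the 37 members with an entry (36.4%), against 1131 of 32851 mouse windows (3.44%). The GAS-like pattern was present in 11 of 44 (25.0%), against 8.3% of all windows, and 5 of the 44 held both. These are matches of letters in a window and not measured binding.

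Across the 48 measured members, 21 passed the test as higher in Ezh2 KO cells and none as lower at an adjusted p of 0.05; 20 did so apart from Cxcl10, which entered the test through its Ezh2 KO readings alone. In all tested genes, 8.35% rose and 7.98% fell (966 and 924 of 11572). The other 27 members did not pass the test, though 41 of the 48 had an unadjusted p under 0.05, against 16.9% of tested genes that were higher in Ezh2 KO at that level. The median log2 difference of the members was 1.22, against -0.07 over all tested genes. In 41 of the 48, all 3 Ezh2 KO arrays read above all 3 wild type arrays, which held for 20.1% of tested genes. The same shares of 8.35% higher, 7.98% lower and 20.1% without overlap apply to the counts by role and by list below. Genotypes overlapped for Eif2ak2, Psmb9, Psmb8, Gbp3, Dhx58, Irf9 and Stat2. The list was drawn up with earlier results of these arrays known, so its count is a description and not independent evidence of direction. The count rested on all 3 culture pairs: with any 1 of them left out, 0 members passed limma's adjusted threshold, and 0 of all tested genes. In those fits 25 to 42 members had an unadjusted p under 0.05. Without the filter on low signal, 0 members and 0 of all tested genes passed, with 39 members under 0.05 unadjusted.

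**Figure D1:**
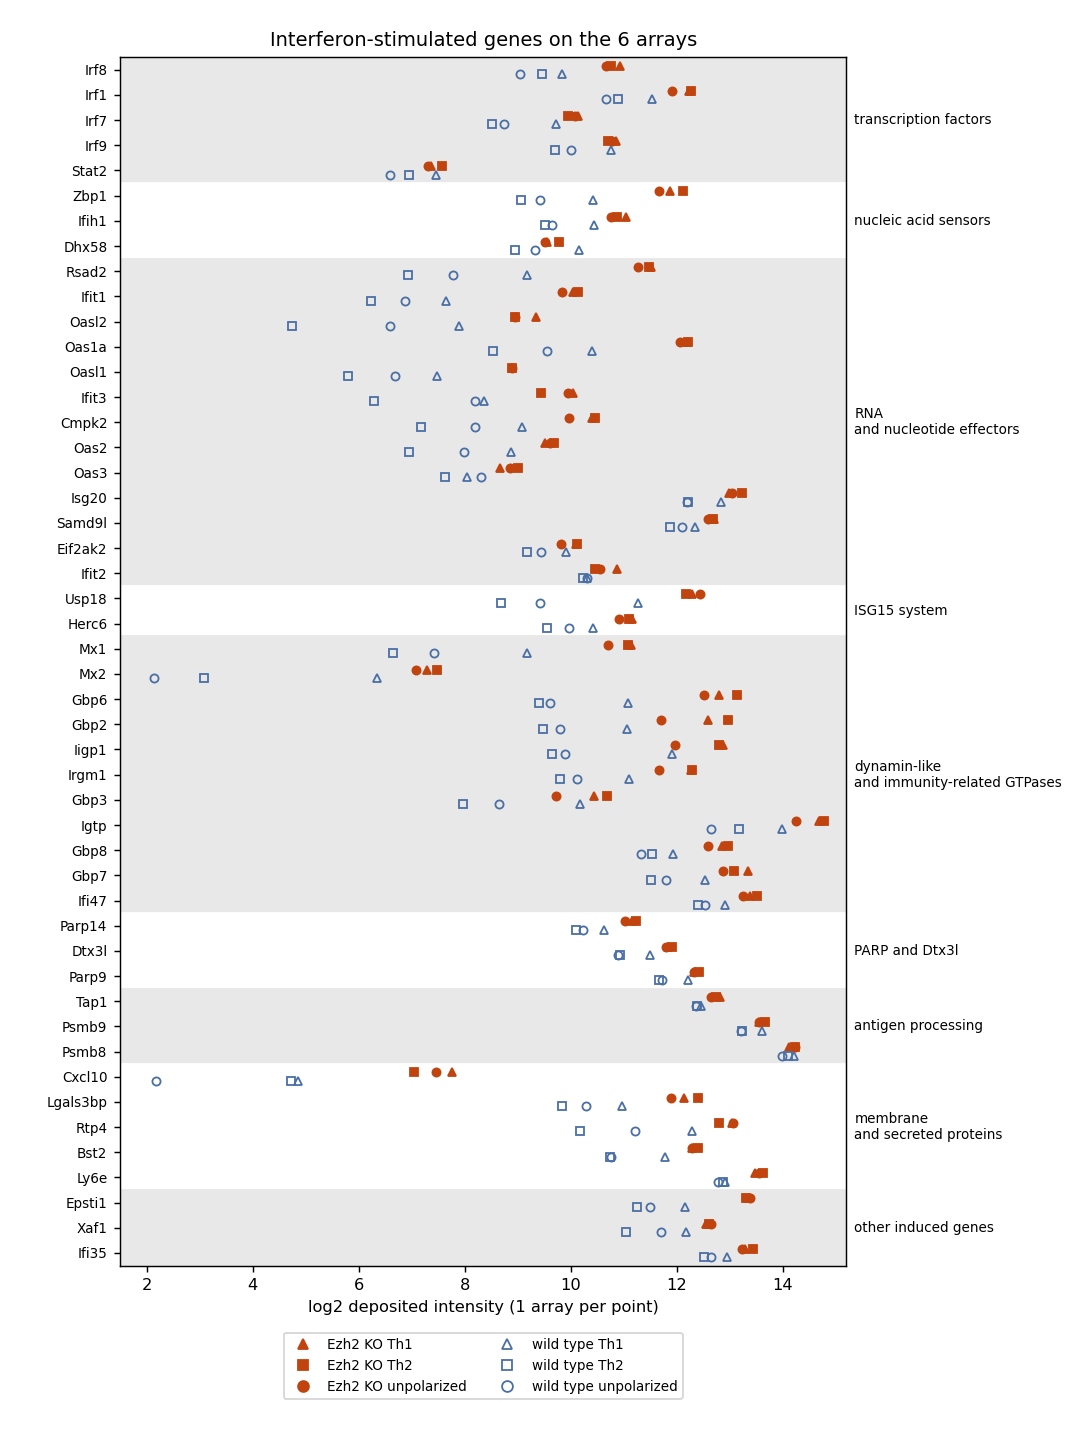
Log2 deposited intensity (horizontal axis) of the 48 measured interferon-stimulated genes, a row for each gene, grouped by role, with 1 point per array. Filled symbols are Ezh2 KO and open symbols wild type, with triangles for Th1, squares for Th2 and circles for unpolarized cells. Filled symbols lie to the right in 41 rows and close together, and open triangles are the rightmost open symbol in all rows but that of Oas3.

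Among the transcription factors, Irf8 and Irf1 rose in Ezh2 KO cells (2 of 5 measured), with a median log2 difference of 1.06 over the 5. Irf8, a factor best known from myeloid and B cells, read 1950 (Th1), 1742 (Th2) and 1623 (unpolarized) in Ezh2 KO cells, against 918 (Th1), 701 (Th2) and 525 (unpolarized) in wild type cells. The lowest Ezh2 KO array was above the highest wild type array, and the log2 difference was 1.34 ± 0.27 (SD, n = 3 cultures), 2.54-fold higher (adjusted p = 0.0265). Irf1, which drives many IFN-γ targets and carries the GAS-like match printed above, read 4827 (Th1), 4925 (Th2) and 3830 (unpolarized) in Ezh2 KO cells, against 2968 (Th1), 1894 (Th2) and 1627 (unpolarized) in wild type cells. Its groups did not overlap either, and it was 2.15-fold higher (1.10 ± 0.36 on the log2 scale, adjusted p = 0.0383).

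Irf7, the amplifier of type I interferon production, read 1125 (Th1), 993 (Th2) and 1085 (unpolarized) in Ezh2 KO cells, against 844 (Th1), 366 (Th2) and 431 (unpolarized) in wild type cells. Every Ezh2 KO array was higher, but the gap narrowed to the wild type Th1 array, and the log2 difference of 1.06 ± 0.56 did not pass (adjusted p = 0.0704). Irf9, the DNA-binding part of the type I complex, read 1864 (Th1), 1679 (Th2) and 1750 (unpolarized) in Ezh2 KO cells, against 1746 (Th1), 829 (Th2) and 1027 (unpolarized) in wild type cells. The wild type Th1 reading lay inside the Ezh2 KO range, and the log2 difference was 0.63 ± 0.48 (adjusted p = 0.129). Stat2, the partner of Irf9 in that complex, read 166 (Th1), 189.7 (Th2) and 159 (unpolarized) in Ezh2 KO cells, against 177 (Th1), 124 (Th2) and 95.9 (unpolarized) in wild type cells, so the highest wild type value exceeded the Ezh2 KO value of the same culture. Its log2 difference of 0.42 ± 0.45 did not pass (adjusted p = 0.226).

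Of the 3 sensors of foreign or misplaced nucleic acid, Zbp1 and Ifih1 rose. Zbp1, which senses Z-form nucleic acids, read 3751 (Th1), 4444 (Th2) and 3263 (unpolarized) in Ezh2 KO cells, against 1365 (Th1), 536 (Th2) and 689 (unpolarized) in wild type cells. All Ezh2 KO readings were more than 2-fold above the highest wild type one, and Zbp1 was 4.76-fold higher (2.25 ± 0.80, adjusted p = 0.0385). Ifih1, the cytosolic sensor MDA5 of long double-stranded RNA, read 2125 (Th1), 1887 (Th2) and 1732 (unpolarized) in Ezh2 KO cells, against 1388 (Th1), 736 (Th2) and 798 (unpolarized) in wild type cells. It did not overlap between genotypes and was 2.04-fold higher (1.03 ± 0.38, adjusted p = 0.0443). Dhx58, the regulatory helicase LGP2, read 748 (Th1), 882 (Th2) and 731 (unpolarized) in Ezh2 KO cells, against 1140 (Th1), 495 (Th2) and 640.3 (unpolarized) in wild type cells. Here the wild type Th1 array was the highest of all 6, and the log2 difference of 0.14 ± 0.72 was smaller than its spread (adjusted p = 0.772).

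The effectors that act on RNA and nucleotides included several of the largest differences. Of 13 measured, 5 rose (Rsad2, Ifit1, Oas1a, Oasl1 and Ifit3), against 8.35% of tested genes. In 12 of them the Ezh2 KO arrays were all above the wild type arrays (20.1% of tested genes). The median log2 difference of the 13 was 2.12. Rsad2 (viperin), which makes a chain-terminating nucleotide, read 2944 (Th1), 2868 (Th2) and 2466 (unpolarized) in Ezh2 KO cells, against 580.4 (Th1), 122 (Th2) and 221 (unpolarized) in wild type cells. The 3 Ezh2 KO readings lay close together, far above a wild type set that itself varied widely. Rsad2 was 5.07-fold higher in Ezh2 KO cells in Th1, 23.5-fold in Th2 and 11.2-fold in unpolarized cultures, with a mean log2 difference of 3.46 ± 1.11 (11.0-fold higher, adjusted p = 0.0337).

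Ifit1, which binds viral RNA that lacks host cap methylation, read 1060 (Th1), 1130 (Th2) and 909 (unpolarized) in Ezh2 KO cells, against 202 (Th1), 75.0 (Th2) and 118 (unpolarized) in wild type cells. It was 8.49-fold higher with no overlap between genotypes (3.09 ± 0.77, adjusted p = 0.0274). Oas1a, an oligoadenylate synthetase that activates RNase L, read 4677 (Th1), 4772 (Th2) and 4302 (unpolarized) in Ezh2 KO cells, against 1359 (Th1), 369.9 (Th2) and 755 (unpolarized) in wild type cells. The Ezh2 KO arrays differed little from each other and stood well above the wild type arrays, 6.33-fold higher (2.66 ± 0.96, adjusted p = 0.0396). Oasl2, an oligoadenylate synthetase-like protein, read 654 (Th1), 495 (Th2) and 497 (unpolarized) in Ezh2 KO cells, against 238 (Th1), 26.8 (Th2) and 96 (unpolarized) in wild type cells. Its mean log2 difference of 2.68 ± 1.40 was close to that of Oas1a but more uneven over cultures, and it missed the threshold (adjusted p = 0.0645).

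The related Oasl1 was 4.72-fold higher (2.24 ± 0.83, adjusted p = 0.0407) and Ifit3, a partner of Ifit1, was 4.59-fold higher (2.20 ± 0.83, adjusted p = 0.0413). Cmpk2, the nucleotide kinase encoded beside Rsad2, had a log2 difference of 2.12 ± 1.02 (adjusted p = 0.0573), and Oas2 one of 1.67 ± 1.05 (adjusted p = 0.0874). The values of Oas3 (0.85 ± 0.46), Isg20, an exonuclease (0.67 ± 0.46), Samd9l (0.55 ± 0.23) and Eif2ak2, the kinase PKR (0.51 ± 0.38), were smaller and none passed (adjusted p 0.0642 to 0.134). Ifit2 stood apart from its family, with 1868 (Th1), 1402 (Th2) and 1496 (unpolarized) in Ezh2 KO cells, against 1274 (Th1), 1201 (Th2) and 1260 (unpolarized) in wild type cells. The genotypes did not overlap, but the log2 difference was only 0.34 ± 0.18 (adjusted p = 0.113).

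In the ISG15 system, which attaches a ubiquitin-like protein to others, Herc6 rose and Usp18 did not pass. Herc6, the mouse ISG15 ligase, read 2274 (Th1), 2194 (Th2) and 1915 (unpolarized) in Ezh2 KO cells, against 1378 (Th1), 750.1 (Th2) and 1002 (unpolarized) in wild type cells. No wild type array reached the Ezh2 KO range, and it was 2.10-fold higher (1.07 ± 0.43, adjusted p = 0.0477). Usp18, which removes ISG15 and dampens signalling from the type I receptor, read 4993 (Th1), 4613 (Th2) and 5548 (unpolarized) in Ezh2 KO cells, against 2468 (Th1), 409 (Th2) and 686 (unpolarized) in wild type cells. The log2 difference was larger than that of Herc6 at 2.51 ± 1.31, and so was its spread (adjusted p = 0.0648), with the wild type Th1 array far above the other 2 wild type arrays.

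Of 11 dynamin-like and immunity-related GTPases, which attack viral particles and the membranes around intracellular microbes, 6 rose (Mx1, Gbp6, Irgm1, Igtp, Gbp8 and Gbp7). Of all tested genes, 8.35% rose. The median log2 difference of the 11 was 1.74, and all but Gbp3 had Ezh2 KO arrays wholly above wild type arrays (20.1% of tested genes). Mx1, of the dynamin-like group, read 2246 (Th1), 2174 (Th2) and 1676 (unpolarized) in Ezh2 KO cells, against 575 (Th1), 101 (Th2) and 171 (unpolarized) in wild type cells. It was 9.38-fold higher (3.23 ± 1.23, adjusted p = 0.0413). Gbp6, a guanylate-binding protein, read 7157 (Th1), 8966 (Th2) and 5820 (unpolarized) in Ezh2 KO cells, against 2170 (Th1), 681 (Th2) and 777 (unpolarized) in wild type cells, and was 6.88-fold higher (2.78 ± 1.00, adjusted p = 0.0394).

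Gbp2, whose promoter is printed above, read 6152 (Th1), 8055 (Th2) and 3332 (unpolarized) in Ezh2 KO cells, against 2152 (Th1), 709 (Th2) and 892 (unpolarized) in wild type cells. The genotypes did not overlap, and with a wide spread over cultures the log2 difference of 2.31 ± 1.06 just missed the threshold (adjusted p = 0.0527). Mx2 read 156 (Th1), 177 (Th2) and 135 (unpolarized) in Ezh2 KO cells, against 80.8 (Th1), 8.50 (Th2) and 4.42 (unpolarized) in wild type cells. The Th2 and unpolarized wild type arrays were at the floor, so the fold of at least 7.12 is a lower bound, and the log2 difference was 2.83 ± 1.64 (adjusted p = 0.0759). Among the rest, Irgm1 was 3.33-fold higher (adjusted p = 0.0438), Igtp 2.47-fold higher (adjusted p = 0.0458), Gbp8 2.30-fold higher (adjusted p = 0.0277) and Gbp7 2.20-fold higher (adjusted p = 0.0399). Iigp1 (2.07 ± 1.10), Gbp3 (1.36 ± 1.25) and Ifi47 (0.77 ± 0.33) did not pass. Igtp was among the brightest members, at 19480 to 28090 in Ezh2 KO cells and 6396 to 16250 in wild type cells.

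The PARP proteins and Dtx3l, the ubiquitin ligase that pairs with Parp9, had smaller differences, with a median of 0.75 on the log2 scale and 1 of 3 passing. Parp14, a mono-ADP-ribosyltransferase, read 2278 (Th1), 2404 (Th2) and 2080 (unpolarized) in Ezh2 KO cells, against 1588 (Th1), 1097 (Th2) and 1211 (unpolarized) in wild type cells, without overlap, and rose 0.81 ± 0.31 on the log2 scale (adjusted p = 0.0481). Dtx3l read 3678 (Th1), 3838 (Th2) and 3567 (unpolarized) in Ezh2 KO cells, against 2874 (Th1), 1948 (Th2) and 1902 (unpolarized) in wild type cells. Parp9, the partner of Dtx3l, read 5151 (Th1), 5489 (Th2) and 5126 (unpolarized) in Ezh2 KO cells, against 4746 (Th1), 3251 (Th2) and 3394 (unpolarized) in wild type cells. In both genes every Ezh2 KO array was higher, with log2 differences of 0.75 ± 0.34 (adjusted p = 0.0617) and 0.49 ± 0.33 (adjusted p = 0.118) that did not pass.

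The antigen processing genes were the role with the smallest differences, and none of 3 passed. Tap1, a chain of the peptide transporter of the endoplasmic reticulum, read 7214 (Th1), 6851 (Th2) and 6433 (unpolarized) in Ezh2 KO cells, against 5615 (Th1), 5345 (Th2) and 5246 (unpolarized) in wild type cells. Its Ezh2 KO arrays were all higher by a near-constant step, with a log2 difference of 0.34 ± 0.04 (adjusted p = 0.0672), and the mean of all its probe sets gave -0.34, where the other 3 probe sets lie below the low-signal limit on every array. Psmb9, an immunoproteasome subunit, read 12080 (Th1), 12950 (Th2) and 11980 (unpolarized) in Ezh2 KO cells, against 12560 (Th1), 9576 (Th2) and 9438 (unpolarized) in wild type cells, and the wild type Th1 array lay within the Ezh2 KO range (0.24 ± 0.26, adjusted p = 0.273). Psmb8, another immunoproteasome subunit, read 17730 (Th1), 19370 (Th2) and 19260 (unpolarized) in Ezh2 KO cells, against 19040 (Th1), 17470 (Th2) and 16180 (unpolarized) in wild type cells, with overlapping genotypes (0.10 ± 0.18, adjusted p = 0.544). In wild type cells Psmb8 read 16180 to 19040, and whether signal level bears on the size of these differences was not tested.

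Of the 5 membrane and secreted proteins, Lgals3bp and Ly6e rose, and none of the 5 overlapped between genotypes. Cxcl10, a chemokine that draws CXCR3-bearing T cells, read 218 (Th1), 131 (Th2) and 175 (unpolarized) in Ezh2 KO cells, against 28.8 (Th1), 26.6 (Th2) and 4.51 (unpolarized) in wild type cells. No wild type array reached the low-signal limit of 64.4, and the unpolarized one was at the floor, which makes the difference at least 8.33-fold (3.06 ± 0.83 on the log2 scale with the floor, and 3.50 without it). As the gene was tested only because its Ezh2 KO readings were high, its p is not given as support. Lgals3bp, a secreted galectin-binding glycoprotein, read 4525 (Th1), 5429 (Th2) and 3803 (unpolarized) in Ezh2 KO cells, against 1992 (Th1), 919 (Th2) and 1246 (unpolarized) in wild type cells, which was 3.45-fold higher (1.79 ± 0.71, adjusted p = 0.0444). Ly6e, a GPI-anchored protein that inhibits coronavirus entry, was 1.62-fold higher with little spread (0.70 ± 0.11, adjusted p = 0.0319).

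Rtp4, a chaperone of receptor transport, read 8457 (Th1), 7104 (Th2) and 8557 (unpolarized) in Ezh2 KO cells, against 5015 (Th1), 1164 (Th2) and 2373 (unpolarized) in wild type cells. Bst2 (tetherin), which holds budding virions on the cell surface, read 4990 (Th1), 5420 (Th2) and 5019 (unpolarized) in Ezh2 KO cells, against 3532 (Th1), 1709 (Th2) and 1740 (unpolarized) in wild type cells. For both genes the Ezh2 KO arrays were nearly level and the wild type Th1 array was the closest to them, and neither log2 difference passed (1.74 ± 0.93, adjusted p = 0.0683, and 1.23 ± 0.64, adjusted p = 0.0665). Of the remaining induced genes, Epsti1 rose, with 10380 (Th1), 10080 (Th2) and 10670 (unpolarized) in Ezh2 KO cells, against 4543 (Th1), 2422 (Th2) and 2888 (unpolarized) in wild type cells. It was 3.27-fold higher with all Ezh2 KO arrays above all wild type arrays (1.71 ± 0.46, adjusted p = 0.0303). Xaf1, an antagonist of the apoptosis inhibitor XIAP, read 6048 (Th1), 6220 (Th2) and 6376 (unpolarized) in Ezh2 KO cells, against 4609 (Th1), 2123 (Th2) and 3316 (unpolarized) in wild type cells (0.96 ± 0.58, adjusted p = 0.0859). Ifi35 read 10050 (Th1), 11120 (Th2) and 9570 (unpolarized) in Ezh2 KO cells, against 7870 (Th1), 5858 (Th2) and 6384 (unpolarized) in wild type cells (0.62 ± 0.29, adjusted p = 0.0683), and neither gene overlapped between genotypes.

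On these arrays the size of the genotype difference was not the same in the 3 cultures. The median log2 difference of the 48 members was 0.70 in Th1, 1.55 in Th2 and 1.29 in unpolarized cultures, against -0.06 over all tested genes in each. At least 2-fold higher signal in Ezh2 KO cells was found for 17 members in Th1 (7.28% of tested genes), 36 in Th2 (9.61%) and 29 in unpolarized cells (7.55%), and for 17 in every culture (3.85%). Th1 gave the smallest of the 3 differences in 44 of 48 members, against 35.0% of tested genes, and Th2 the largest in 41, against 32.9%. Each value within a culture compares 1 array with 1 array, so there is no replicate and no test of whether cultures differ in the genotype effect.

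**Figure D2:**
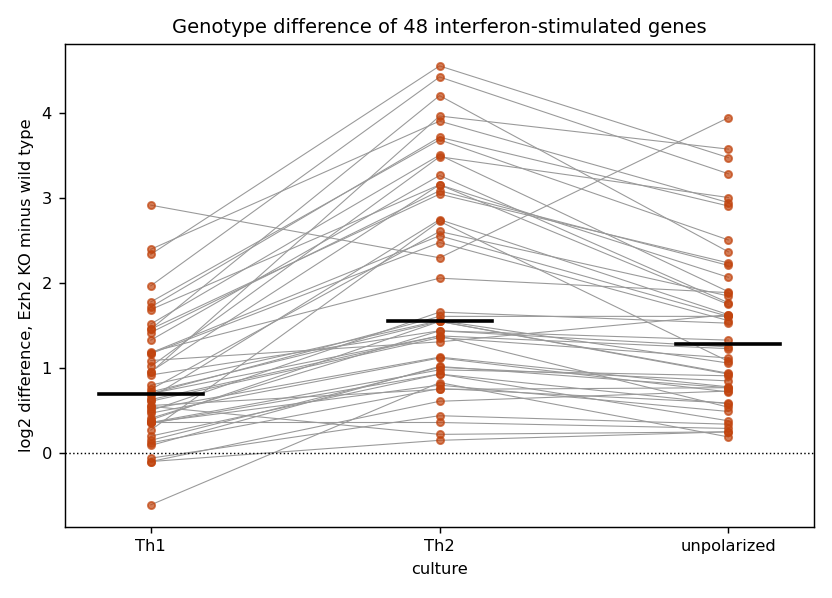
Log2 difference, Ezh2 KO minus wild type, of each of the 48 measured members in the Th1, Th2 and unpolarized cultures. Points joined by a line are 1 gene, horizontal bars are medians (0.70, 1.55 and 1.29), and the dotted line is no difference. Most lines peak in Th2, and the 4 points under 0 (Dhx58, Stat2, Psmb8 and Psmb9) are all in Th1.

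Reading the same 6 arrays by genotype shows which arrays moved. Over the 3 cultures, the range of log2 signal had a median over members of 0.27 in Ezh2 KO cells and 1.09 in wild type cells, against 0.30 in Ezh2 KO and 0.28 in wild type over all tested genes. The range was narrower in Ezh2 KO than in wild type for 45 of 48 members, against 47.7% of tested genes, and the exceptions were Ifit2, Tap1 and Ly6e. In wild type cells 47 members were highest in Th1 (33.7% of tested genes), all but Oas3, and 34 were both highest in Th1 and lowest in Th2 (16.7%). In Ezh2 KO cells the top was spread out, with 16 members highest in Th1 (29.9% of tested genes), 28 in Th2 (34.4%) and 4 in unpolarized cells (Usp18, Rtp4, Epsti1 and Xaf1).

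In Ezh2 KO cells the median log2 difference of Th1 minus unpolarized cultures over the members was 0.15, and in wild type cells it was 0.80. At 1.5-fold or more, 4 members were higher in Th1 than unpolarized cells in Ezh2 KO (7.08% of tested genes) and 33 in wild type (6.86%). Th2 cells were at least 1.5-fold below unpolarized cells for 0 members in Ezh2 KO (5.89%) and 14 in wild type (7.86%), and at least 1.5-fold above them for 5 in Ezh2 KO (8.9%) and 1 in wild type (5.77%). Th1 cells were at least 1.5-fold above Th2 cells for 2 members in Ezh2 KO (6.56%) and 32 in wild type (7.99%). These counts, the ranges and the differences within cultures are made from the same 6 readings per gene and are not separate observations. The wild type pattern rests on 1 array for each culture.

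**Figure D3:**
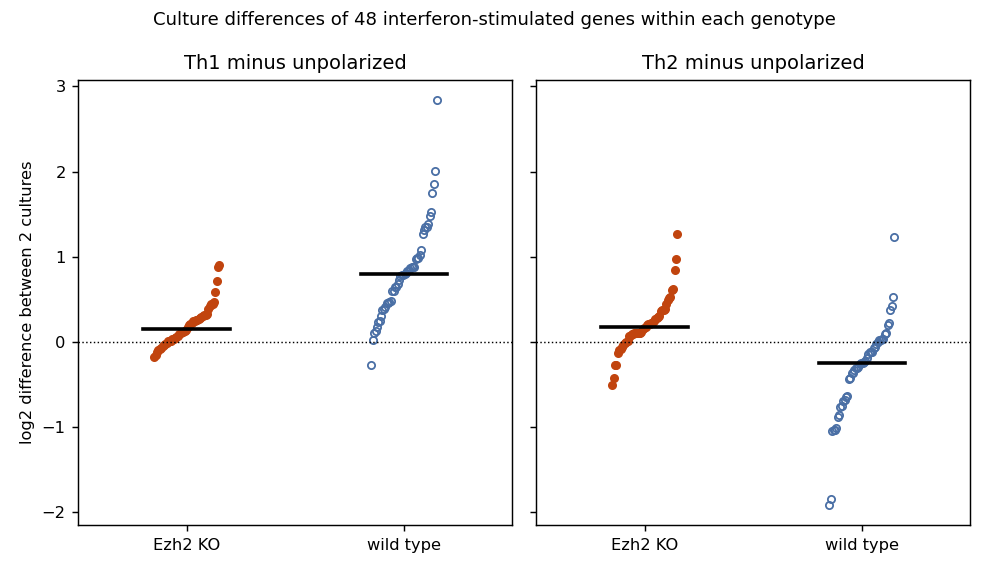
Log2 difference of Th1 minus unpolarized (left) and Th2 minus unpolarized (right) for the 48 members, with 1 point per gene, Ezh2 KO filled and wild type open, spread sideways in order of value. Bars are medians and the dotted line is no difference. The medians for Th1 are 0.15 in Ezh2 KO and 0.80 in wild type, and for Th2 they are 0.17 in Ezh2 KO and -0.25 in wild type.

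With genotype as a block, limma found 0 members and 0 genes (0.0% of 11572) past the adjusted threshold for Th1 against Th2, Th1 against unpolarized, or Th2 against unpolarized cells. The lowest adjusted p of a member was 0.657, 0.857 and 0.755 in these contrasts, and an unadjusted p under 0.05 was found for 2, 2 and 0 members, against 7.59%, 5.46% and 6.7% of tested genes. For Th1 over unpolarized cells those were Igtp (0.89 on the log2 scale, SE 0.29, unadjusted p = 0.0408) and Irf8 (0.54, SE 0.17, unadjusted p = 0.0392). For Th1 over Th2 cells they were Ifit3 (1.35, SE 0.45, unadjusted p = 0.0436) and Gbp7 (0.64, SE 0.22, unadjusted p = 0.0491). Averaged over genotypes, 46 of 48 members were higher in Th1 than Th2 cells, with a median of 0.48, and 47 were higher in Th1 than unpolarized cells, with a median of 0.47.

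Many members lie side by side in the genome, and 20 of the 48 fell into 8 clusters with at most 3 other protein-coding genes between neighbours. On chromosome 19, Ifit1 and Ifit3 rose by 3.09 ± 0.77 and 2.20 ± 0.83 on the log2 scale, while their neighbour Ifit2 had a difference of 0.34 ± 0.18 that did not pass. On chromosome 5, Gbp6 rose by 2.78 ± 1.00, near Gbp8, which rose by 1.20 ± 0.26. The trio Parp14, Dtx3l and Parp9 on chromosome 16 ran from 0.49 to 0.81, and Psmb9, Tap1 and Psmb8 on chromosome 17 from 0.10 to 0.34. Genes of 1 family share sequence, and probe sets of paralogs may take signal from each other; a probe set annotated to both Gbp8 and Gbp4 read under 18 on every array. Of 27 further probe sets of the members that were above the low-signal limit, 27 had a genotype difference of the same sign as the one used.

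**Figure D4:**
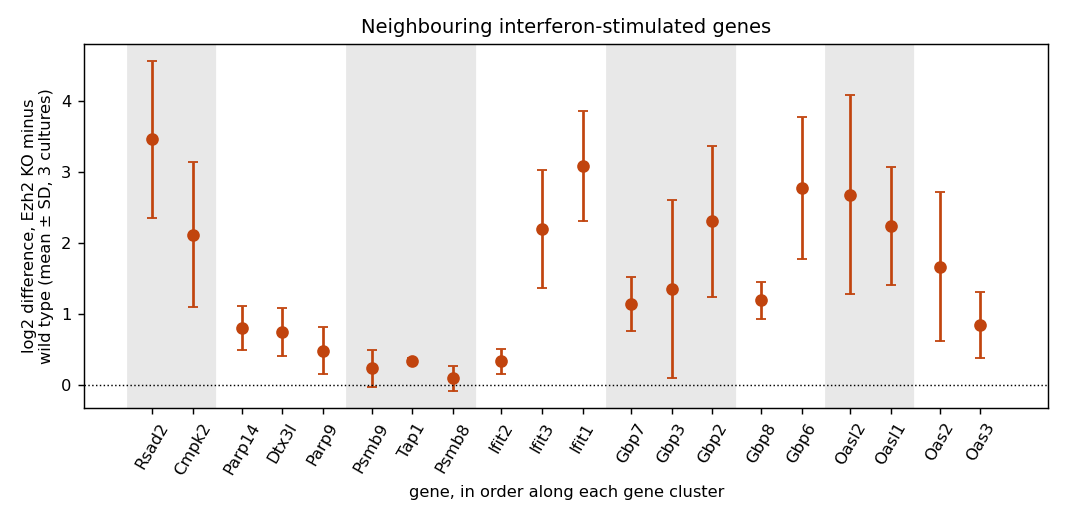
Mean log2 difference, Ezh2 KO minus wild type, of the 20 members in 8 gene clusters, with bars of 1 SD over the 3 cultures (n = 3), in order along each cluster, and shading to separate the clusters. Within the Ifit cluster Ifit2 lies near 0.34 while Ifit3 and Ifit1 lie above 2, and the Psmb9, Tap1 and Psmb8 cluster runs from 0.10 to 0.34.

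Set against the promoters, the 15 measured members with an ISRE-like core had log2 differences of 0.42 to 3.46 with a median of 1.36, and 9 of them passed as higher (8 apart from Cxcl10). The 20 without one ranged from 0.10 to 2.68 with a median of 0.86, and 6 rose. The 11 members with a GAS-like match had a median of 1.10, and 5 rose. Of all tested genes, 8.35% rose. Rsad2, Ifit1 and Cxcl10, with the core, lay above these 20 members without it, the other 12 lay within the range of the 20, and Oasl2, at 2.68 ± 1.40, had neither pattern in its window. Members without a promoter entry are left out here, among them Mx1 (3.23 ± 1.23), Mx2 (2.83 ± 1.64) and Gbp6 (2.78 ± 1.00).

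Of the interferons themselves, 6 of 10 genes with a probe set did not reach the low-signal limit on any array. Ifng, the type II interferon, read 767 (Th1), 608 (Th2) and 266 (unpolarized) in Ezh2 KO cells, against 25.8 (Th1), 4.03 (Th2) and 6.07 (unpolarized) in wild type cells. It was at least 33.5-fold higher in Ezh2 KO cells, with the Th2 and unpolarized wild type arrays at the floor (5.07 ± 0.61). No wild type array reached the low-signal limit, so Ifng was tested only through its Ezh2 KO readings and its p is not given as support. Ifng was higher in Ezh2 KO cells in every culture, and its lowest Ezh2 KO reading was in unpolarized cells, as it was for 32 of the 48 members (29.4% of tested genes). Its highest Ezh2 KO reading was in Th1, as for 16 members (29.9% of tested genes), while 28 members were highest in Th2 (34.4%). These orders rest on 1 array per culture, and the Th2 and unpolarized cultures held an antibody to IFN-γ. A link between Ifng and the members was not tested. Ifnb1 read 42.5 (Th1), 37.0 (Th2) and 42.1 (unpolarized) in Ezh2 KO cells, against 67.1 (Th1), 30.2 (Th2) and 41.2 (unpolarized) in wild type cells, with overlap and a log2 difference of -0.11 ± 0.49 (adjusted p = 0.739). Ifna1 reached the limit on 1 array only (-0.36 ± 2.28, adjusted p = 0.809). Ifnz, annotated as interferon zeta, fell, with 171 (Th1), 262 (Th2) and 246 (unpolarized) in Ezh2 KO cells, against 316 (Th1), 506 (Th2) and 523 (unpolarized) in wild type cells (-0.98 ± 0.10, adjusted p = 0.0232).

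The 2 chains of the IFN-γ receptor moved in opposite directions. Ifngr1, the ligand-binding chain, rose, with 8423 (Th1), 7525 (Th2) and 8070 (unpolarized) in Ezh2 KO cells, against 4396 (Th1), 2412 (Th2) and 3084 (unpolarized) in wild type cells (2.50-fold higher, 1.32 ± 0.36, adjusted p = 0.0318). Ifngr2, the chain that starts signalling, fell, with 144 (Th1), 264 (Th2) and 241 (unpolarized) in Ezh2 KO cells, against 345 (Th1), 721 (Th2) and 1043 (unpolarized) in wild type cells (3.05-fold lower, -1.61 ± 0.45, adjusted p = 0.0318). Neither chain overlapped between genotypes. The type I receptor chains did not pass the test, with -0.14 ± 0.13 for Ifnar1 (adjusted p = 0.344) and -0.10 ± 0.11 for Ifnar2 (adjusted p = 0.466), and nor did Il10rb (0.10 ± 0.15, adjusted p = 0.485).

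None of 5 tested Janus kinase and STAT genes passed, with log2 differences of 0.01 ± 0.05 for Jak1, 0.02 ± 0.07 for Tyk2, 0.15 ± 0.18 for Stat3 and 0.50 ± 0.16 for Stat4 (adjusted p 0.0558 to 0.961 for these 4). Of 11 tested genes of nucleic acid sensing upstream of interferon, 3 rose and none fell, against 8.35% and 7.98% of all tested genes. These 3 were Cgas, the DNA sensor (0.66 ± 0.03, adjusted p = 0.0292), Ddx58, the RNA sensor RIG-I (0.67 ± 0.24, adjusted p = 0.049), and Irf5 (0.53 ± 0.03, adjusted p = 0.0363). Tlr7, an endosomal RNA receptor, had 1.08 ± 0.89 (adjusted p = 0.136). Of 10 negative regulators, Socs1, the inhibitor of Janus kinases, rose, with 1322 (Th1), 1535 (Th2) and 1654 (unpolarized) in Ezh2 KO cells, against 967 (Th1), 948 (Th2) and 919.5 (unpolarized) in wild type cells. Its groups did not overlap, and the log2 difference was 0.66 ± 0.20 (adjusted p = 0.044). The phosphatases Ptpn1 and Ptpn6 fell, with differences of -0.82 ± 0.19 (adjusted p = 0.0334) and -0.74 ± 0.20 (adjusted p = 0.0387), and Socs3 had 0.77 ± 0.81 (adjusted p = 0.204). Leaving out any culture pair, or the filter, left 0 of these sensing and regulator genes past the threshold, and 0 of all tested genes. Centring each array on its median also ended the calls of Ddx58 (adjusted p = 0.0684), Irf5 (adjusted p = 0.058), Socs1 (adjusted p = 0.0649), Ptpn1 (adjusted p = 0.0546) and Ptpn6 (adjusted p = 0.0583). Averaging all probe sets of a gene ended those of Cgas (adjusted p = 0.0656), Ddx58 (adjusted p = 0.132) and Irf5 (adjusted p = 0.674).

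A further 57 interferon-induced genes outside the list were counted. Of 39 tested, 11 passed as higher in Ezh2 KO and none as lower (10 higher apart from Ifi204, tested only through its Ezh2 KO readings), with a median log2 difference of 0.61, against 1.22 in the members. Of all tested genes, 8.35% passed as higher and 7.98% as lower, with a median log2 difference of -0.07. The largest were Ifitm1, an inhibitor of viral fusion, with 16900 (Th1), 19890 (Th2) and 17940 (unpolarized) in Ezh2 KO cells, against 379 (Th1), 222 (Th2) and 532 (unpolarized) in wild type cells (5.68 ± 0.73, adjusted p = 0.0177), and the chemokine Ccl5 (4.12 ± 0.66, adjusted p = 0.02). The wild type Th1 reading of Ifitm1 was below its wild type unpolarized reading, an order found in 1 member, Oas3. Ifi204, a DNA sensor of the p200 family, was at least 8.48-fold higher, with no wild type array at the low-signal limit. Parp12 had 2.17 ± 1.01 (adjusted p = 0.0542), close to the values of the members Gbp2 and Cmpk2.

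**Figure D5:**
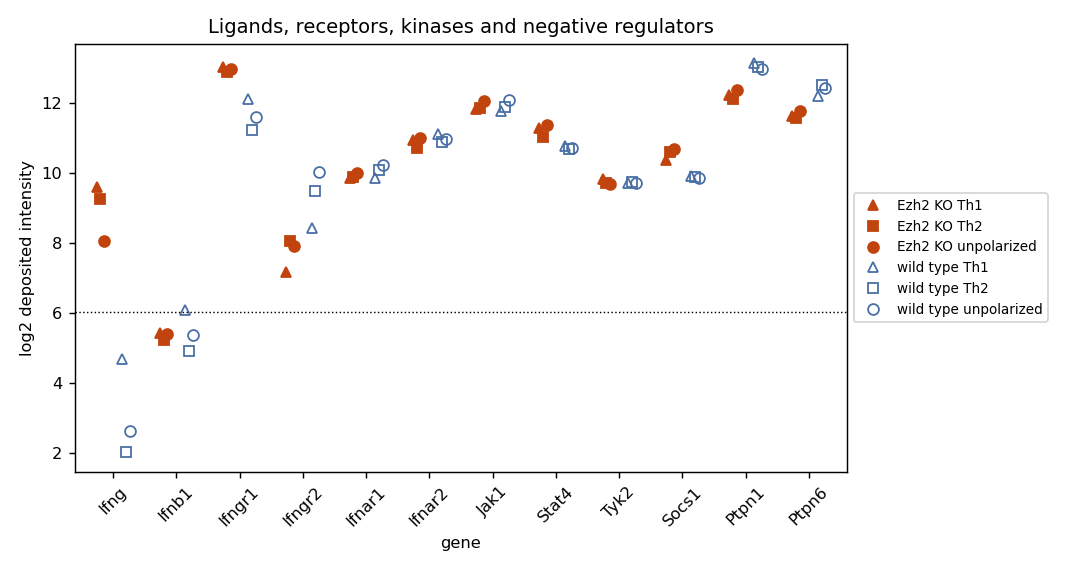
Log2 deposited intensity of 12 interferon pathway genes that are not members, with 1 point per array, Ezh2 KO filled and left of wild type (open), with triangles for Th1, squares for Th2 and circles for unpolarized cells. The dotted line is the low-signal limit. Ifng lies above that line in Ezh2 KO and below it in wild type, Ifngr1 is higher and Ifngr2 lower in Ezh2 KO, and Jak1 and Tyk2 overlap.

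Markers of other cell types that a sorted culture could hold were read beside these values. The summed signal of 6 NK cell markers was 183 to 246 in Ezh2 KO cells and 97.7 to 129 in wild type cells, with 5 of the 6 below the low-signal limit on every array. Among those 5, Klra7 read 22.3 to 37.3 in Ezh2 KO cells and 0.734 to 6.60 in wild type cells. Klre1 read 36.3 to 41.5 in Ezh2 KO cells and 1.52 to 26.1 in wild type cells. Readings overlapped between genotypes for Ncr1, Tyrobp and Klra8, and the means of Ncr1 and Tyrobp were lower in Ezh2 KO cells. The sixth, Fcer1g, read 47.0 to 110 in Ezh2 KO cells and 2.32 to 30.4 in wild type cells. The sum of 15 myeloid and dendritic cell markers was 3998 to 6160 in Ezh2 KO cells and 2805 to 3723 in wild type cells, with 8 of 15 below the limit throughout. Among those 8, Cd14 read 26.0 to 32.9 in Ezh2 KO cells and 4.33 to 7.73 in wild type cells. Genotypes overlapped for Lyz2, Flt3, Itgam, Itgax, S100a8, S100a9 and Xcr1. The means of Lyz2, Itgam, Itgax, S100a9 and Xcr1 were lower in Ezh2 KO cells. Mpeg1 read 49.0 to 141 in Ezh2 KO cells and 6.82 to 11.0 in wild type cells. The brightest of the 15 were Cst3 (0.41 ± 0.27, adjusted p = 0.124) and Batf3 (1.43 ± 0.62, adjusted p = 0.0506). Batf3 read 965 to 1524 in Ezh2 KO cells and 220 to 652 in wild type cells. Cd68 (0.55 ± 0.24), Adgre1 (0.11 ± 0.56), Csf1r (-0.34 ± 0.15) and Fcgr1 (-0.11 ± 1.32) did not pass either. Fcer1g and Mpeg1 were tested only through their Ezh2 KO readings. For 7 B cell markers the sum was 4576 to 6028 in Ezh2 KO cells and 7437 to 8765 in wild type cells, with Ms4a1 higher (adjusted p = 0.0472) and Ighm lower in Ezh2 KO (adjusted p = 0.0326). Most of that sum was Ighm, at 4094 to 5454 in Ezh2 KO cells and 7221 to 8368 in wild type cells. Cd22 (0.78 ± 0.44), Cd79b (0.56 ± 0.22) and Blk (0.73 ± 0.90) did not pass, and the other 2 were below the low-signal limit on every array. The 8 plasmacytoid dendritic cell markers other than the member Bst2 summed to 805 to 935 in Ezh2 KO cells and 743 to 947 in wild type cells, with Tcf4 higher (0.94 ± 0.28, adjusted p = 0.037) and Pacsin1 lower in Ezh2 KO (-0.88 ± 0.13, adjusted p = 0.0273). None of these markers was at a true 0, which arrays cannot show, and their part in the differences of the interferon-stimulated genes was not tested.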

How the data were processed

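Total RNA from 6 cultures was hybridized to 1 Affymetrix array each. The authors' deposited values are linear intensities, 1 per probe set and array, made with Affymetrix Expression Console per the submitters' processing notes; its version and the summarization are not given in the sources used here. All 6 arrays share a trimmed mean of 500.003 (2% removed at either end), which shows scaling to a common target. Of 45101 probe sets, 64 were controls, and the platform annotation gave 1 symbol for 34945, several for 932 and none for 9160.

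Readings under the 20th percentile of the whole table (11.328, log2 3.502) were set to it before taking log2. Each gene was represented by its brightest probe set on average, and genes whose brightest reading stayed under the table's median (64.426) were not tested. A log2 difference therefore understates the change of a gene near the floor, and a fold is a lower bound where an array of the lower group was at the floor. All 6 arrays entered one limma 3.58.1 fit in R 4.3.3, with additive terms for genotype and culture (2 residual degrees of freedom, eBayes prior 1.663), with Benjamini-Hochberg adjustment over 11572 genes and a threshold of 0.05. The fit was also run on simulated arrays with independent noise and the same genotype change in every culture. That run does not cover differences that vary with culture. Folds are means over 3 cultures, and "±" is the SD over them. Differences within 1 culture or 1 genotype have no replicate.

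Members, lists and the rule for naming genes were chosen with earlier results of these data known. The rule gave per role up to 4 members with the largest differences, and members with opposite signs between cultures, array by array, and up to 4 genes per pathway list plus the interferon receptors, Ifng and Socs1. Promoters came from RefSeq (GRCm38.p6), which held entries for 37 of the 50 members. Signal over background and the number of arrays, not depth, limit the precision. The alternatives tried were other scalings, floors, filters, probe set rules and moderation settings, no culture block, and leaving out each culture pair.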

Additional observations from a re-analysis of the deposited data

Results flagged for a closer look

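In 4 members the genotype difference within Th1 had the opposite sign to that within the other cultures: Dhx58 (-0.61), Stat2 (-0.10), Psmb8 (-0.10) and Psmb9 (-0.06, all log2, Ezh2 KO minus wild type). In Th2 and unpolarized cells the same differences were 0.83 and 0.19 for Dhx58, 0.61 and 0.73 for Stat2, 0.15 and 0.25 for Psmb8, and 0.44 and 0.34 for Psmb9. Each is 1 array against 1 array, and the difference between cultures was not tested.

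A probe set annotated to both Isg15, the ubiquitin-like modifier, and the predicted gene Gm9706 entered no gene test. It read 5116 (Th1), 4304 (Th2) and 3914 (unpolarized) in Ezh2 KO cells, against 1875 (Th1), 340.3 (Th2) and 676 (unpolarized) in wild type cells, a mean log2 difference of 2.55 ± 1.11 (SD, n = 3 cultures). Its signal cannot be assigned to either gene.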

How the results depend on the processing

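The 21 members that passed as higher in Ezh2 KO became 0 without the filter on low signal, 40 (of 43 tested) with a filter on the mean at the 60th percentile and 44 with an intensity trend in eBayes. With 1 culture pair left out, the count ran from 0 to 0. It stayed between 18 and 31 with median centring, quantile normalization, no floor, a floor at the 40th percentile, mean probe sets, robust eBayes and no culture block (31). In those fits 7.4% (mean probe sets) to 10.9% (no culture block) of all tested genes passed as higher. The pathway lists' 17 higher genes became 0, 27 and 37 under the first 3 of these settings and 0 to 0 without a pair. Their 4 lower genes became 0 without the filter, 2 with median centring and 0 to 0 without a pair. Over all genes, median centring gave 863 higher and 411 lower, against 966 and 924. Without the filter on low signal, 0 genes were higher and 0 lower. The filter on the mean gave 1284 higher and 1766 lower, and the intensity trend 1777 higher and 2206 lower. Under these 3 settings the member counts therefore moved in the same direction as those of the whole array. The test pairs genotypes by culture, and the labels carry no replicate numbers for another pairing. The cause of these changes was not tested.

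Gene by gene over all alternatives, 457 member values kept their direction and side of the threshold, 92 lost it and 68 gained it. The sign of the log2 difference reversed for Dhx58 (-0.21 without the Th2 pair, up to 0.51 without another) and Tap1 (-0.34 with mean probe sets). Among pathway genes it reversed for Ifna1 (0.28 with the higher floor, and -1.67 to 0.31 without 1 pair), Ifnb1 (-0.31 to 0.16 without 1 pair), Jak1 (-0.02 with quantile normalization, and -0.02 to 0.03 without 1 pair), Stat3 (-0.02) and Tyk2 (-0.45) with mean probe sets, and Tyk2 (-0.02 to 0.04) without 1 pair. The median difference of members ran from 0.99 to 1.43 without 1 pair. An ISRE-like core with a C added was in 29.5% of member windows and 0.819% of all, and in the 200 bases before the start the core was in 27.3% of members' and 2.27% of all, and a GAS-like match in 20.5% and 5.49%. Without the floor, Cxcl10 (adjusted p = 0.0544), Parp14 (adjusted p = 0.0515) and Herc6 (adjusted p = 0.0513) lost their calls. Parp14 also lost its call with mean probe sets (adjusted p = 0.0558). Dim wild type readings, in Oasl1, Oasl2, Mx2 and Cxcl10, limit the folds of those members.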

Other observations

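The genes that complete the class I antigen presentation route, chosen after their values were seen, had log2 differences of 0.11 to 0.73. Psmb10, the remaining immunoproteasome subunit, rose, with 6452 (Th1), 6642 (Th2) and 6251 (unpolarized) in Ezh2 KO cells, against 4464 (Th1), 3702 (Th2) and 3564 (unpolarized) in wild type cells (0.73 ± 0.17 on the log2 scale, adjusted p = 0.036). Nlrc5, the transactivator of class I genes, had 0.65 ± 0.36 (adjusted p = 0.082), and Tapbp, the peptide-loading factor tapasin, 0.51 ± 0.25 (adjusted p = 0.0791). The heavy chains H2-K1 (0.28 ± 0.21, adjusted p = 0.175) and H2-D1 (0.24 ± 0.10, adjusted p = 0.14), their light chain B2m (0.11 ± 0.15, adjusted p = 0.452) and the proteasome activator Psme1 (0.30 ± 0.22, adjusted p = 0.161) did not pass. The heavy chains read 25190 or more on every array.

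Schlafen genes, which regulate T cell quiescence and restrict viruses, were also read after their values were seen. Slfn8 rose, with 1587 (Th1), 1551 (Th2) and 1422 (unpolarized) in Ezh2 KO cells, against 944 (Th1), 566 (Th2) and 749 (unpolarized) in wild type cells (1.04 ± 0.37, adjusted p = 0.0418), and Slfn1 rose by 0.91 ± 0.16 (adjusted p = 0.0277). Averaging all its probe sets ended the call of Slfn1 (adjusted p = 0.083). Slfn5 had 1.44 ± 0.64 (adjusted p = 0.0526), with 267 (Th1), 308 (Th2) and 242 (unpolarized) in Ezh2 KO cells, against 81.6 (Th1), 82.3 (Th2) and 148 (unpolarized) in wild type cells.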
